A study of Mus musculus with 6 samples.

Results

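The genes described here encode 8 enzymes of the hexosamine pathway and of O-GlcNAc cycling, out of 16840 genes in the deposited count table. They were chosen by name: Ogt and Mgea5 (the older symbol of Oga), Gnpnat1, Pgm3, Uap1, Nagk, Amdhd2 and Gnpda1. All 8 were in the table and all 8 passed the filter on low counts, which left 12340 genes for testing. RNA was sequenced from in vitro cultured wild-type mouse alveolar macrophages, the resident phagocytes of the lung air spaces, at day 2. There were 3 groups of 2 libraries: cells with no GM-CSF stimulation, cells given GM-CSF, and cells given GM-CSF and DON. GM-CSF, granulocyte-macrophage colony-stimulating factor, is the cytokine on which these cells depend in the lung. The labels do not spell out DON, an abbreviation used both for a glutamine antagonist, which blocks enzymes that take nitrogen from glutamine, and for the fungal toxin deoxynivalenol. Doses were not given in the labels.

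The hexosamine pathway turns fructose 6-phosphate and glutamine into UDP-N-acetylglucosamine (UDP-GlcNAc), the sugar donor for N-glycans, proteoglycans and O-GlcNAc. Its entry enzyme, glutamine-fructose-6-phosphate amidotransferase, is among the enzymes that glutamine antagonists inhibit. Gnpnat1, Pgm3 and Uap1 carry out the later steps, while Nagk returns free GlcNAc to the pathway and Amdhd2 and Gnpda1 lead amino sugar phosphates back towards glycolysis. Ogt adds single GlcNAc residues to nuclear and cytoplasmic proteins and Oga (here Mgea5) removes them, so that the pair sets the level of a modification that responds to nutrient supply. The splicing of both transcripts, which include forms with retained introns, is known to respond to the O-GlcNAc level.

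The 6 libraries held between 28321986 and 35196387 counts. Of 17 alveolar macrophage markers 15 were in the table and none was at 0 in a group. Their summed level was 46683 to 46777 CPM (counts scaled to the library total) in cells lacking GM-CSF, 32485 to 32525 in GM-CSF cells and 37461 to 38565 in DON cells, and its part in the results below was not tested. Individual markers moved in different directions. On the TMM-scaled CPM used from here on, Lyz2 had group means of 36595, 17076 and 18914 CPM and Chi3l3 of 1814, 5543 and 7702 CPM in that order, while Car4 had 0.23 CPM without GM-CSF against 656 with it and 314 with DON. Summed markers of dendritic cells, granulocytes, lymphocytes, lung epithelium and stroma reached at most 107 CPM of total counts, and they too moved with the groups. In the order no GM-CSF, GM-CSF, DON, the granulocyte sum (S100a8 and Csf3r) was 28.8 to 31.2, 4.41 to 5.09 and 3.93 to 4.91 CPM, and the dendritic cell sum 8.27 to 8.43, 28.8 to 29.1 and 25.7 to 26.3 CPM. Genes of the dendritic cell list went different ways from GM-CSF to DON. Clec9a rose (291 and 252 counts to 470 and 474), while Zbtb46 (274 and 252 to 81 and 144) and Batf3 (345 and 298 to 149 and 179) were lower. The epithelial sum was 17.5 to 19.9, 101 to 107 and 27.8 to 28.5 CPM, of which Cdh1 made the rise (526 and 386 counts without GM-CSF, 3251 and 2994 in GM-CSF cells), while 3 of the 7 tested genes of that list fell with GM-CSF, among them Epcam (47 and 73 counts to 19 and 23). The part of these cells in the results was not tested. In bulk RNA, fewer cells of a type and less RNA per cell cannot be told apart. The labels do not say whether the 2 libraries of a group came from separate cultures or animals, and the p-values therefore describe only how much these libraries vary, which may be technical.

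Start-site sequence from RefSeq (GRCm38.p6) was found for 6 of the 8 genes, and not for Gnpnat1 and Gnpda1. Each 300-base window, 250 bases before and 50 after a RefSeq start site, was searched on both strands for 5 motifs: the E-box CACGTG, its extended form TCACGTGA (which overlaps it), TGACGTG (core of the unfolded protein response element), TGACGTCA (cyclic AMP response element) and TGATGNAA (core of the amino acid response element). Amdhd2 is shown for its E-boxes, Nagk as the gene of the 8 nearest to Amdhd2 in its level across the libraries. Ogt is shown because it rose most among the 8 genes with DON. No link between motifs and levels was tested. Capitals mark a motif match, except that of the extended E-box only the inner CACGTG is in capitals, and lower case marks the rest.
Amdhd2 promoter: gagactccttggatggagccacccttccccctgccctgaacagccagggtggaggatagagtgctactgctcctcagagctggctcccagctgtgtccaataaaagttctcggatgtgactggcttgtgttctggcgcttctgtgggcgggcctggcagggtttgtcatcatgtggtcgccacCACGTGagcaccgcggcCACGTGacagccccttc
Amdhd2 E-box next to the start: cagctgagagtCACGTGatgcgacctggcc
Nagk promoter: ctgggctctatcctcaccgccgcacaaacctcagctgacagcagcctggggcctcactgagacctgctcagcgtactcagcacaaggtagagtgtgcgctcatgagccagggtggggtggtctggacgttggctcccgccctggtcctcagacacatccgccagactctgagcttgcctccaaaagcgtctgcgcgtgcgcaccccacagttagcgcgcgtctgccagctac
Ogt promoter: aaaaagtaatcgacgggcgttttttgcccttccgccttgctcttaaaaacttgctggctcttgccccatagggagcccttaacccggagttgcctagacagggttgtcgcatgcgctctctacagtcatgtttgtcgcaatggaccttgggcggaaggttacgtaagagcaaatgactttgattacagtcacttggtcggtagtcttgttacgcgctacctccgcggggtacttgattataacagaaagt
Uap1 start site: ttctcggtcgcTGACGTGtcgggccggcag
These runs lie at chr17:24163767-24163983 and chr17:24163738-24163767 (both minus strand), chr6:83794750-83794981 (plus), chrX:101639801-101640050 (plus) and chr1:170174945-170174974 (minus). The promoter runs end where the gene begins in the annotation or, for Ogt, at the RefSeq start site. Amdhd2 held 3 E-boxes, at positions -67 to -62, -50 to -45 and -23 to -18 from its RefSeq start, and the one nearest the start is also the window's match to the extended form. Of 32851 promoter windows, 7.15% held at least 1 E-box and 0.0883% (29 windows) at least 3, and 0.974% held the extended form. Uap1 held TGACGTG at positions 2 to 8 after its start, a motif found in 2.01% of windows. No other match was found in the windows of these 6 genes; TGACGTCA occurred in 1.79% and TGATGNAA in 3.97% of all windows. A match is a description of letters, not of a bound site.

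The 8 genes fell into 4 patterns of level over the 3 groups. Ogt, Nagk, Amdhd2 and Gnpda1 were lowest in both GM-CSF libraries and highest in both DON libraries. The share of all genes with this order was not counted. Between 376 and 470 of 8163 genes had a Pearson's r of log2 CPM over 0.95 with each of these 4. Pgm3 was highest with GM-CSF, Uap1 and Gnpnat1 were lower without GM-CSF than in either GM-CSF group, and Mgea5 stood apart with a low level in both DON libraries. Against cells without GM-CSF, GM-CSF raised 3 of the 8 genes and lowered 4, where 27.5% of all genes tested rose and 29.3% fell. DON added to GM-CSF raised 4 and lowered 2, against 28.8% and 28.8% of all genes. Compared with no GM-CSF, cells with GM-CSF and DON had 6 of the genes higher and 1 lower, against 27.2% and 28.4%. The median size of change, on the log2 scale and without sign, was 0.61, 0.83 and 0.36 for the 8 genes in these 3 comparisons and 0.32, 0.33 and 0.31 for all genes tested. The signed medians of the 8 genes were -0.13, 0.28 and 0.28, and those of all genes -0.02, 0.01 and 0.01. Rises and falls are those that edgeR's quasi-likelihood test gave an adjusted p under 0.05 (Benjamini-Hochberg, all 12340 genes). The first 2 comparisons share the GM-CSF libraries and the last shares its groups with both, so the 3 are not independent.

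**Figure D1:**
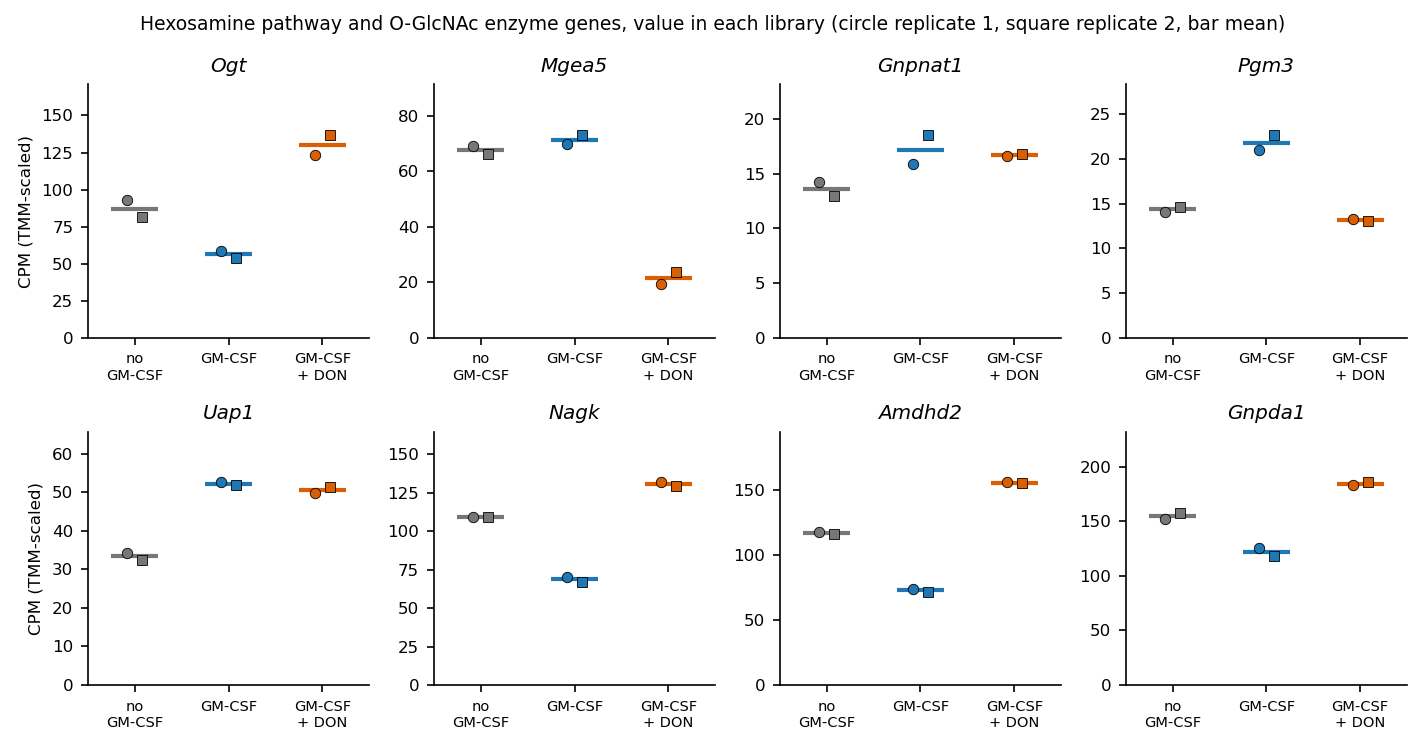
Level of each of the 8 genes in CPM scaled by TMM (y axis, from 0) in the 6 libraries, with the 3 groups on the x axis, points for libraries and bars for group means. Ogt spans 54.1 to 137 CPM and Mgea5 19.3 to 73.0 CPM, and the 2 DON libraries hold the highest Ogt and the lowest Mgea5 values.

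Ogt, the O-GlcNAc transferase, lies on chromosome X at 101640060 to 101684351 (GRCm38, plus strand). Its level was 92.7 and 81.3 CPM in the 2 libraries without GM-CSF, 58.9 and 54.1 CPM with GM-CSF, and 123 and 137 CPM with GM-CSF and DON. The 3 groups did not overlap, with the GM-CSF libraries lowest and the DON libraries highest. With GM-CSF it fell by 0.62 on the log2 scale (SE 0.08, edgeR adjusted p = 7.16e-05), which is 1.54-fold. DON raised it by 1.20 ± 0.08 (SE), or 2.30-fold, over GM-CSF alone (edgeR adjusted p = 9.61e-07). By size this was rank 494 among the rises of the 12340 genes tested. It was also 0.58 ± 0.07 (SE) higher with DON than without GM-CSF (edgeR adjusted p = 9.93e-05).

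Mgea5, the hydrolase that removes O-GlcNAc, lies on chromosome 19 at 45750259 to 45783837 (minus strand). Its level was 69.2 and 66.1 CPM without GM-CSF and 69.8 and 73.0 CPM with GM-CSF, against 19.3 and 23.7 CPM with DON. Both DON libraries were thus far below the other 4, which lay within a narrow range. GM-CSF alone gave a log2 difference of 0.08 (95% interval -0.07 to 0.23), which did not pass the test (edgeR adjusted p = 0.423). With DON it was 3.31-fold lower than with GM-CSF alone, a log2 change of -1.73 ± 0.08 (SE, edgeR adjusted p = 1.97e-07), and 1.43% of genes tested fell at least as far. Against no GM-CSF the log2 change was -1.65 ± 0.08 (SE, edgeR adjusted p = 1.28e-07). Of the 50-base words in its annotated transcripts, 7.47% also occur in another gene, mostly the opposite-strand Gm15491.

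Because transferase and hydrolase act in opposite directions, the ratio of their counts was taken within each library, where no scaling between libraries is needed. There were 1.34 and 1.23 Ogt counts per Mgea5 count without GM-CSF, 0.844 and 0.741 in GM-CSF cells, and 6.40 and 5.76 once DON was added. The hydrolase thus had more counts than the transferase in the GM-CSF libraries and fewer in the other 4. The ratio was 7.68-fold higher with DON than with GM-CSF alone, a log2 difference of 2.94 between group means of 2.6 ± 0.11 and -0.34 ± 0.13 (SD, n = 2). Against no GM-CSF, whose mean was 0.36 ± 0.09 (SD, n = 2), the log2 difference was 2.24, or 4.73-fold, and between GM-CSF and no GM-CSF it was -0.70. An exact permutation test of 2 against 2 libraries cannot go below p = 0.333 (two-sided), the value that each of the 3 differences reached, and no other test of the ratios was run. These are counts of whole genes and not numbers of molecules: per length, from the deposited FPKM, the ratios were 1.43 and 1.34, then 0.908 and 0.811, then 6.35 and 5.57.

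**Figure D2:**
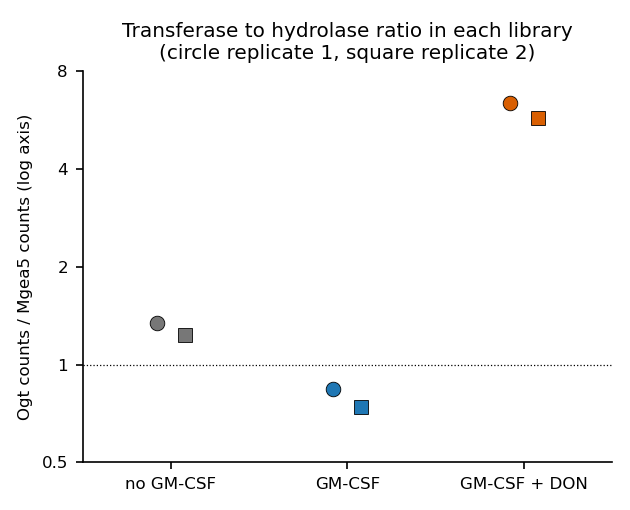
Ogt counts divided by Mgea5 counts (y axis, log scale) in each library of the 3 groups on the x axis, circles for replicate 1 and squares for replicate 2, with a dotted line at a ratio of 1. The 2 DON libraries lie at 6.40 and 5.76 and the other 4 between 0.741 and 1.34.

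Among the 3 genes of synthesis, Pgm3 and Uap1 rose with GM-CSF, and with DON over GM-CSF Pgm3 fell while Uap1 did not pass the test. Pgm3, the phosphoacetylglucosamine mutase (chromosome 9, 86554377 to 86571842, minus strand), had 14.1 and 14.7 CPM without GM-CSF, 21.0 and 22.7 CPM with GM-CSF, and 13.3 and 13.1 CPM with DON. The GM-CSF libraries were the highest and the DON libraries lay just under those without GM-CSF. GM-CSF raised it by 0.60 ± 0.08 (SE, log2, edgeR adjusted p = 7.62e-05) and with DON over GM-CSF it fell, with a change of -0.72 ± 0.08 (edgeR adjusted p = 2.62e-05). Between DON and no GM-CSF the log2 difference of -0.12 (95% interval -0.28 to 0.03) did not pass the test (edgeR adjusted p = 0.211).

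Uap1, the pyrophosphorylase that makes UDP-GlcNAc (chromosome 1, 170141938 to 170174957, minus strand), had 34.3 and 32.4 CPM without GM-CSF, 52.5 and 51.9 CPM with GM-CSF, and 49.8 and 51.4 CPM with DON. All 4 libraries with GM-CSF were thus above the 2 without it. GM-CSF raised it by 0.65 ± 0.05 (SE, log2, edgeR adjusted p = 4.49e-06), and cells with DON were 0.60 ± 0.05 above cells without GM-CSF (edgeR adjusted p = 8.27e-06). DON against GM-CSF gave -0.05 (95% interval -0.15 to 0.06, edgeR adjusted p = 0.478), which did not pass. Whether Uap1 and Pgm3 responded differently to DON was not tested.

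Gnpnat1, the acetyltransferase of the pathway (chromosome 14, 45376334 to 45404913, minus strand), had 14.2 and 13.0 CPM without GM-CSF, 15.9 and 18.5 CPM with GM-CSF, and 16.6 and 16.8 CPM with DON. Both DON libraries lay between the 2 GM-CSF libraries, and all 4 were above those without GM-CSF. It rose by 0.34 ± 0.09 (SE, log2) with GM-CSF (edgeR adjusted p = 0.0102) and was 0.30 ± 0.09 higher with DON than without GM-CSF (edgeR adjusted p = 0.0196), and DON against GM-CSF gave -0.04 (95% interval -0.22 to 0.14, edgeR adjusted p = 0.746). The first call was lost when replicate 2 of no GM-CSF was left out (edgeR adjusted p = 0.0586) or replicate 2 of GM-CSF (0.101). The other was lost with DESeq2 (0.0575), with FPKM in limma (0.0625 and 0.0676), without no GM-CSF replicate 2 (0.103) and without either DON library (0.0650 and 0.0803). Its counts are also uncertain for another reason: 75.4% of its 50-base words occur in another annotated gene, mostly Styx on the opposite strand, with which it shares 3878 exon bases, and the strand setting of the counting was not given in the sources used here. Styx itself had 4.11, 4.12 and 4.53 CPM in the 3 groups and was not called in any comparison (edgeR adjusted p of 0.480 or more). For Pgm3 the same share was 26.2%, from Dop1a on the opposite strand, listed in the table as Dopey1. That gene had 33.9, 28.7 and 32.1 CPM and fell by 0.24 on the log2 scale with GM-CSF (edgeR adjusted p = 0.0299). Its changes of 0.16 with DON over GM-CSF and -0.08 between DON and no GM-CSF were not called (edgeR adjusted p = 0.122 and 0.440). The part of shared sequence in the counts of Gnpnat1 and Pgm3 was not tested.

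The 3 genes of salvage and breakdown were all lowest with GM-CSF and highest with DON, an order whose share among all genes was not counted. Nagk, the kinase that recovers GlcNAc (chromosome 6, 83794982 to 83804018, plus strand), had 110 and 109 CPM without GM-CSF, 70.3 and 67.1 CPM with GM-CSF, and 132 and 130 CPM with DON. The 2 libraries of each group lay close together and the groups were well apart. It fell with GM-CSF by 0.67 on the log2 scale (SE 0.05, edgeR adjusted p = 1.21e-06), and DON raised it by 0.93 ± 0.05 (1.90-fold, edgeR adjusted p = 2.48e-07).

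Amdhd2, the deacetylase that removes the acetyl group from GlcNAc 6-phosphate (chromosome 17, 24155833 to 24163766, minus strand), had 117 and 116 CPM without GM-CSF, 73.7 and 71.6 CPM with GM-CSF, and 156 and 155 CPM with DON. This is the gene whose start-site window held 3 E-boxes, and their part in its level was not tested. It fell with GM-CSF by 0.68 on the log2 scale (SE 0.04, edgeR adjusted p = 7.68e-07). Its rise of 1.10 ± 0.04 (2.14-fold) with DON had the smallest adjusted p of the 8 genes in that comparison (edgeR, 8.15e-08), and 4.94% of genes tested rose at least as far.

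Gnpda1, the deaminase that returns glucosamine 6-phosphate to fructose 6-phosphate (chromosome 18, 38327535 to 38339003, minus strand), had 152 and 157 CPM without GM-CSF, 125 and 118 CPM with GM-CSF, and 183 and 186 CPM with DON. The order of the groups was again GM-CSF, no GM-CSF, DON, over a narrower range. It fell with GM-CSF by 0.35 on the log2 scale (SE 0.05, edgeR adjusted p = 1.49e-04) and rose by 0.60 ± 0.05 with DON (edgeR adjusted p = 3.88e-06). Over cells without GM-CSF, the DON cells were higher by 0.26 ± 0.05 for Nagk, 0.41 ± 0.04 for Amdhd2 and 0.25 ± 0.05 for Gnpda1 (SE, log2, edgeR adjusted p = 9.00e-04, 2.51e-05 and 0.00117). Of Gnpda1's 50-base words, 10.9% also occur in Gm8615.

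**Figure D3:**
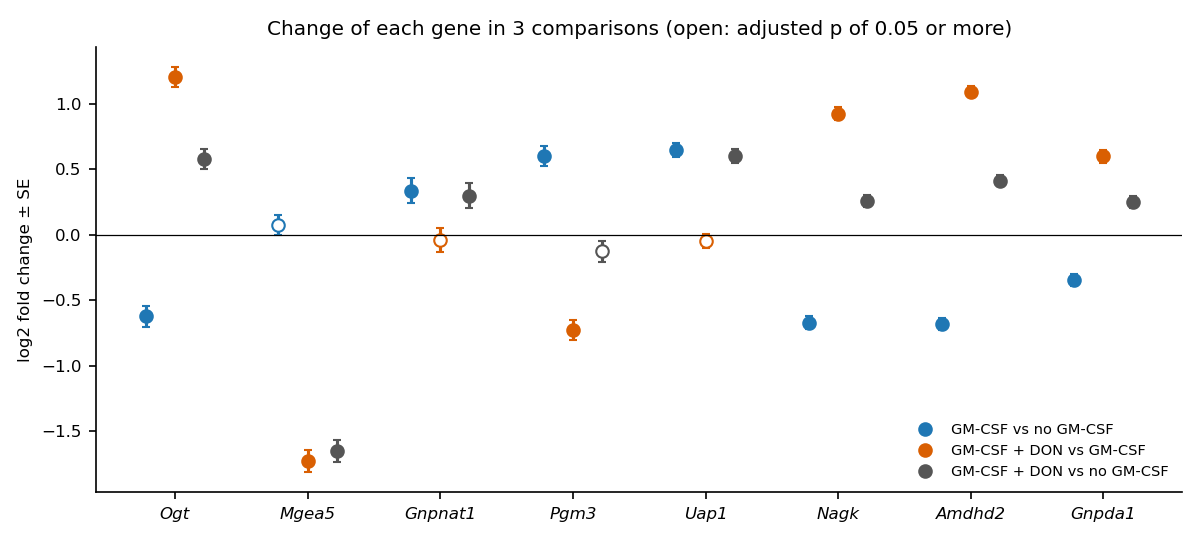
Log2 fold change (y axis, bars are SE) of the 8 genes on the x axis in 3 comparisons shown by colour, filled where the edgeR adjusted p was under 0.05 and open otherwise. With DON over GM-CSF, Ogt (1.20) and Amdhd2 (1.10) are highest and Mgea5 (-1.73) lowest.

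The genes that feed the pathway changed by less than the O-GlcNAc pair with DON. Of 6 entry genes, 3 rose and 2 fell with GM-CSF, 1 rose and 3 fell with DON over GM-CSF, and 1 rose and 2 fell between DON and no GM-CSF. Of all genes tested, 27.5% rose and 29.3% fell with GM-CSF, and 28.8% and 28.8% with DON over GM-CSF. Between DON and no GM-CSF these shares were 27.2% and 28.4%. Gfpt1, the amidotransferase that sets the flow into the pathway, had 56.9 and 52.8 CPM without GM-CSF, 65.6 and 78.8 CPM with GM-CSF and 60.6 and 63.6 CPM with DON. The groups did not overlap and the GM-CSF libraries were highest. It rose by 0.39 ± 0.08 with GM-CSF (SE, log2, edgeR adjusted p = 0.00226). Its change of -0.22 ± 0.08 with DON passed narrowly (edgeR adjusted p = 0.0453) and did not pass without GM-CSF replicate 2 (a change of -0.07, 0.437), without either DON library (0.199 and 0.0978) or with FPKM in limma (0.153 and 0.160). Between DON and no GM-CSF its change of 0.18 ± 0.08 did not pass (edgeR adjusted p = 0.0935), but it did without a scaling factor (0.0160), with only the 2 groups compared (0.0351) and without GM-CSF replicate 1 or 2 (0.0360 and 0.0349). Gfpt2, its isoenzyme, was nearly absent, with 5 and 1 counts without GM-CSF, 16 and 18 counts in GM-CSF cells and 17 in each DON library. Its fitted log2 changes over no GM-CSF, 2.51 ± 0.62 in GM-CSF cells and 2.57 ± 0.62 in DON cells (SE), passed the test (edgeR adjusted p = 0.00590 and 0.00541) and rest on those few counts.

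The hexokinases, which phosphorylate glucose ahead of the pathway, went different ways. Hk3 had 243 and 242 CPM without GM-CSF, 101 and 118 CPM in GM-CSF cells and 195 and 191 CPM in DON cells. It changed by -1.15 ± 0.07 on the log2 scale with GM-CSF and rose by 0.82 ± 0.07 with DON. Hk2 rose by 0.26 ± 0.07 with GM-CSF, a call lost without GM-CSF replicate 2 (edgeR adjusted p = 0.0627), and changed by -0.37 ± 0.07 with DON. Hk1 fell in all 3 comparisons, with log2 changes of -0.28, -0.24 and -0.52. Gpi1, glucose 6-phosphate isomerase, was not called in any (edgeR adjusted p = 0.309, 0.345 and 0.940), except that it passed in both comparisons with no GM-CSF when total counts were used without a scaling factor (0.00310 and 0.0457).

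Enzymes next to the salvage genes gave 1 rise and 3 falls of 6 with GM-CSF, 2 and 2 with DON over GM-CSF, and 1 and 4 between DON and no GM-CSF. The shares of all genes that rose and fell were 27.5% and 29.3%, 28.8% and 28.8%, and 27.2% and 28.4% in that order. Gnpda2, the isoenzyme of Gnpda1, had log2 changes of -0.34 ± 0.08, 0.79 ± 0.08 and 0.45 ± 0.08 (SE) in these comparisons, beside -0.35, 0.60 and 0.25 for Gnpda1. The first and last of these were lost with FPKM in limma (adjusted p = 0.101 and 0.110, then 0.0685 and 0.0714), and the first without a scaling factor (0.0512). Uap1l1, a relative of Uap1, fell by 0.79 on the log2 scale with GM-CSF where Uap1 rose, and stayed at 119 CPM with DON against 114 CPM with GM-CSF (edgeR adjusted p = 0.390). Npl, the sialic acid lyase, had log2 changes of -0.41, -0.42 and -0.82. The first 2 lost their calls in 7 and 6 of the alternatives, among them DESeq2 (adjusted p = 0.0837 and 0.0690) and leaving out GM-CSF replicate 2 or 1 (0.188 and 0.246). Renbp, the GlcNAc epimerase, changed by 0.15 with DON over GM-CSF, a call lost in 5 alternatives (DESeq2 adjusted p = 0.0607). Galk2, the GalNAc kinase, changed by -0.14 between DON and no GM-CSF, a call lost in 9 alternatives (DESeq2 adjusted p = 0.0882).

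A list of 27 genes in the table covers the transfer of GlcNAc from UDP-GlcNAc: transferases, their partner subunits and the Golgi transporter of the donor. Of its 25 tested genes, 7 rose and 14 fell with DON over GM-CSF (median log2 change -0.25, all genes 0.01), where 28.8% of all genes rose and 28.8% fell. With GM-CSF 10 rose and 9 fell (median 0.12), against 27.5% and 29.3% of all genes, and between DON and no GM-CSF 7 rose and 11 fell (median -0.20), against 27.2% and 28.4%. With DON over GM-CSF the smallest adjusted p-values belonged to Lfng, a Notch-modifying fringe enzyme (-0.98 ± 0.06), Gnptab, which makes the lysosomal sorting tag (-0.56 ± 0.04), and the N-glycan branching enzymes Mgat4a (-0.63 ± 0.06) and Mgat2 (-0.48 ± 0.05) (SE, log2). With GM-CSF they belonged to Extl3, an enzyme of heparan sulfate synthesis (-0.72 ± 0.06), Lfng (0.67 ± 0.06), Dpagt1, the first enzyme of N-glycan precursor assembly (0.45 ± 0.05), and Mgat4b (-0.44 ± 0.05). Between DON and no GM-CSF they were Extl3 (-1.07 ± 0.06), Gnptab (-0.75 ± 0.04), Mgat5 (-0.93 ± 0.08) and Mfng (-2.70 ± 0.29, from 108 and 127 counts to 18 and 15).

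Of 5 genes that turn UDP-GlcNAc into CMP-sialic acid or carry it into the Golgi, 1 rose and 2 fell with GM-CSF, 1 rose and 2 fell with DON over GM-CSF, and 2 rose and 3 fell between DON and no GM-CSF. Among all genes the shares that rose and fell were 27.5% and 29.3%, 28.8% and 28.8%, and 27.2% and 28.4% in these comparisons. Nans, the sialic acid synthase, rose by 0.58 ± 0.04 with GM-CSF and changed by -0.30 ± 0.04 with DON, and Slc35a1, the transporter of CMP-sialic acid, rose by 0.65 ± 0.08 with DON (SE, log2). Gne, which takes UDP-GlcNAc into this branch, fell by 0.31 on the log2 scale with GM-CSF (edgeR adjusted p = 0.00824), a call lost without GM-CSF replicate 1 (0.0805) and without a scaling factor (0.0604). It was also lower by 0.31 between DON and no GM-CSF, where FPKM in limma (0.0763 and 0.0808) and leaving out DON replicate 2 (0.0900) ended the call. Nanp, the phosphatase of this branch, fell by 0.92 on the log2 scale with GM-CSF. Cmas changed by -0.20 with DON over GM-CSF, lost without GM-CSF replicate 2 (0.0628), and by -0.21 between DON and no GM-CSF, lost without a scaling factor (0.0971).

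The lysosomal enzymes that release GlcNAc, the substrate of Nagk, were lower with GM-CSF than without it. All 7 tested of 8 in the table fell with GM-CSF (median log2 change -0.60), where 29.3% of all genes fell, and 6 rose and 1 fell with DON over GM-CSF (median 0.45), where 28.8% of all genes rose and 28.8% fell. Over the 14 alternatives the count of falls with GM-CSF ranged from 5 to 7. Between DON and no GM-CSF 3 fell and 4 were not called (median 0.00), against 28.4% of all genes that fell. Hexa, a subunit of beta-hexosaminidase, had 850 and 862 CPM without GM-CSF, 411 and 410 CPM with GM-CSF and 576 and 577 CPM with DON. It was thus lower in both GM-CSF groups than without GM-CSF, with the DON libraries between. Naglu, which acts on heparan sulfate, rose by 0.62 with DON over GM-CSF and had a log2 change of -0.62 with GM-CSF over none. Hgsnat, the lysosomal acetyltransferase, was the gene that fell with DON (-0.67 ± 0.04, SE), and it was also lower with DON than without GM-CSF (-0.87 ± 0.04).

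**Figure D4:**
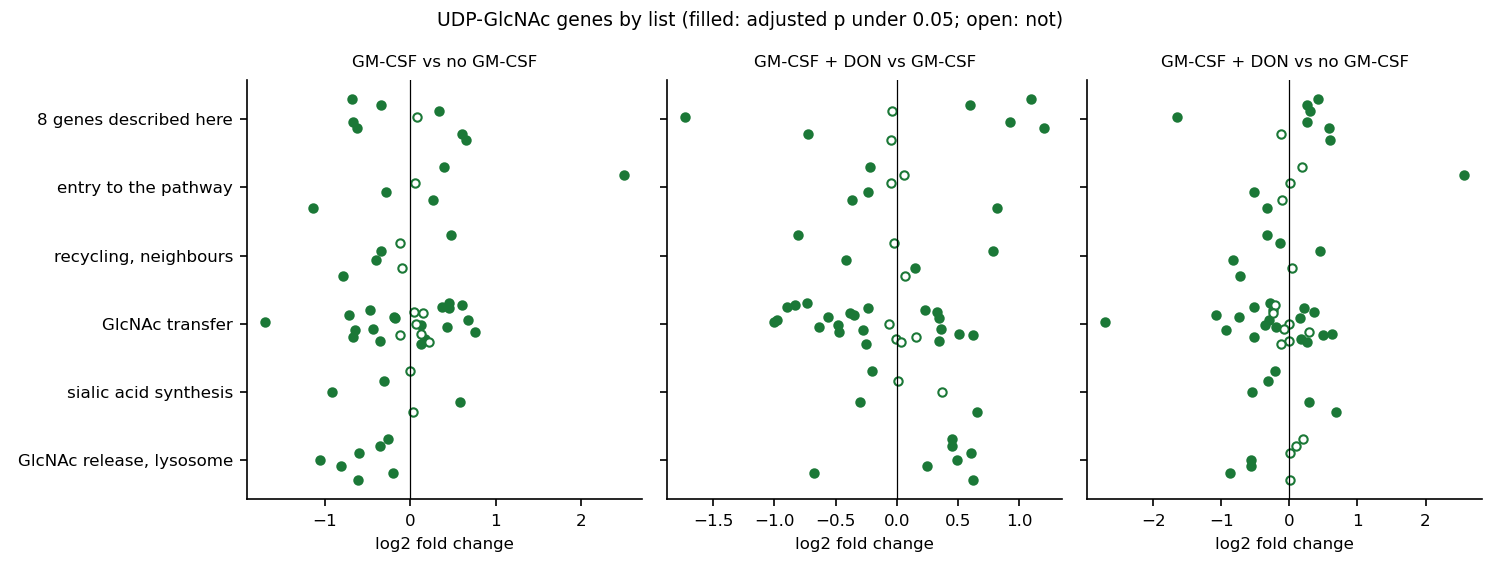
Log2 fold change (x axis) of each tested gene in 6 lists of UDP-GlcNAc genes (y axis) for the 3 comparisons, filled where the edgeR adjusted p was under 0.05. The 7 lysosomal genes lie left of 0 with GM-CSF and 6 of them right of 0 with DON over GM-CSF.

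Levels of different genes can be set side by side per length, in the deposited FPKM. Without GM-CSF the mean FPKM fell from Nagk (103 ± 0.33, SD, n = 2) through Amdhd2 (91.6 ± 1.36), Gnpda1 (78.7 ± 1.33), Ogt (20.0 ± 1.61), Uap1 (15.8 ± 0.48), Mgea5 (14.5 ± 0.47) and Gnpnat1 (5.57 ± 0.37) to Pgm3 (3.27 ± 0.08). The salvage and breakdown genes were thus the most abundant and the acetyltransferase and the mutase the least, and no neighbours in this order overlapped. The last places are uncertain, since Gnpnat1 and Pgm3 share 75.4% and 26.2% of their 50-base words with another gene. With GM-CSF, Nagk (63.5 ± 2.57) and Gnpda1 (63.4 ± 3.66) overlapped at the top, Amdhd2 had 57.8 ± 1.04, and Uap1 (24.8 ± 0.27) and Mgea5 (15.3 ± 0.38) stood above Ogt (13.2 ± 0.73). Gnpnat1 (7.08 ± 0.77) and Pgm3 (4.99 ± 0.27) were again last. With DON the order was Nagk (124 ± 0.15), Amdhd2 (121 ± 0.51), Gnpda1 (104 ± 2.40), Ogt (26.8 ± 1.79), Uap1 (23.9 ± 0.48), Gnpnat1 (6.82 ± 0.05), Mgea5 (4.53 ± 0.72) and Pgm3 (2.99 ± 0.03), with no overlap between neighbours. Mgea5 thus stood below Gnpnat1 per length with DON, while its CPM, which are not per length, stayed above those of Gnpnat1 in both DON libraries.

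The length by which the deposited FPKM divide the counts can be recovered as counts over FPKM, and it was not the same in every library. Expressed as a percent of each gene's mean and relative to the library's median, that of Ogt was 97.7 and 95.6 without GM-CSF, 96.1 and 95.5 in GM-CSF cells, and 107 and 108 in DON cells. Gnpda1 went the other way, with 104 and 105, 101 and 104, and 94.7 and 92.9. Group means ranged over 11.6 points for Ogt and 10.4 for Gnpda1, a range reached by 9.53% and 11.6% of the 9257 genes with at least 1000 counts over the libraries. Mgea5 ranged over 1.23 points and Nagk over 3.92. The FPKM rise of Ogt from GM-CSF to DON was accordingly smaller than its rise in counts, and that of Gnpda1 larger. The annotation lists 7 transcripts of Ogt, 3 of them with a retained intron, and 6 of Mgea5, 2 of them with one. Gene-level counts do not separate these forms, and which forms were present was not tested.

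**Figure D5:**
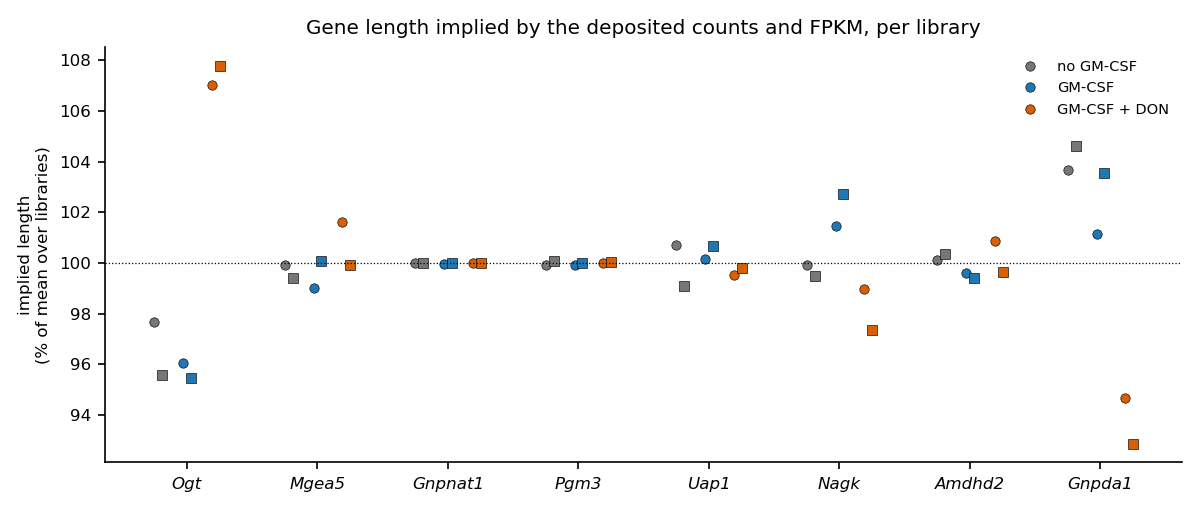
Gene length implied by counts over FPKM (y axis, percent of the gene's mean over the 6 libraries) for the 8 genes on the x axis, coloured by group, circles and squares for replicates 1 and 2. The DON libraries of Ogt lie at 107 and 108 and those of Gnpda1 at 94.7 and 92.9.

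The profile of each gene over the 6 libraries was compared with those of 8163 genes of at least 10 CPM on average, as Pearson's r of log2 CPM. The points are 3 groups of 2 libraries, so r describes mainly the group means, and between 38 and 508 genes reached 0.95 with each of the 8. Ogt was most like Ccni and Bcas3 (0.997 for both) and Mgea5 most like Dclre1b (0.9996) and Slc25a13 (0.999). Nagk was nearest to Tcn2 (0.999) and Hsd17b11 (0.999), Amdhd2 to Gpr157 (0.9996) and Rinl (0.999), and Gnpda1 to Dcaf8 and Fzd1 (0.998 for both). Pgm3 was nearest to Dtymk (0.998) and Lrrc40 (0.997), Uap1 to Irgc1 and Pi4ka (0.998 for both), and Gnpnat1, with the fewest close genes, to 2210009G21Rik (0.987) and Commd1 (0.985). Within the 8 genes, Amdhd2 was the nearest to Ogt (0.983), to Nagk (0.993) and to Gnpda1 (0.993), and Uap1 and Gnpnat1 were nearest to each other (0.907). Mgea5 and Pgm3 had no closer member than each other, at 0.652.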

How the data were processed

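The 6 libraries were made from 1.3 ug of total RNA each and sequenced paired-end on an Illumina instrument, per the labels' protocols. The authors deposited whole-number counts per gene and FPKM values (counts per length and depth). The submitters' processing notes name, without roles, mm10, DESeq2 1.28.1, Subread 1.4.6, featureCounts and STAR 2.6.0a; the annotation, the strand setting and the lengths behind FPKM were not given in the sources used here. Counts were fitted in edgeR 4.0.16 (R 4.3.3): filterByExpr with a minimum count of 10, TMM factors, 1 coefficient per group over all 6 libraries, quasi-likelihood tests (two-sided) of 3 contrasts, Benjamini-Hochberg over 12340 genes, calls at 0.05. The script was tested on simulated data. CPM are TMM-scaled unless stated. Alternatives used DESeq2 1.42.0, limma 3.58.1 on log2(FPKM + 0.1 or 1), other scalings, no filter, only the 2 groups compared, a replicate block and each library left out. Coordinates and transcripts come from GENCODE vM21 (GRCm38, the build of mm10), promoters from RefSeq GRCm38.p6. Depth was 28321986 to 35196387 counts. No 2 libraries held identical values, and replicates differed beyond counting noise (chi-square per degree of freedom of 4.50 to 8.46). The labels do not say whether a replicate number marks a shared culture or animal, and the main fit did not pair the libraries.

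The members and lists were chosen with earlier results of these data known. Named are all 8 members, all genes of the entry and salvage lists, up to 4 called genes with the smallest adjusted p from each of the other 3 lists per comparison, and the 2 genes most like each member. Genes whose exons overlap a member were added afterwards. Some genes that this rule names are counted in their lists and not reported here.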

Additional observations from a re-analysis of the deposited data

How the results depend on the processing

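Over 14 alternatives to each of the 24 changes of the 8 genes, 327 values kept their direction and side of the threshold, 8 lost a call (all Gnpnat1, given above) and 1 changed sign: Gnpnat1 with DON over GM-CSF, not called in any, ranged from -0.147 to 0.0790 on the log2 scale when 1 library was left out. Counts of called genes stayed within 1.5 times of those reported for all genes, for the 8 genes and for the list of GlcNAc transfer. Of the short lists, whose counts are small, some did not: entry genes that rose between DON and no GM-CSF ranged from 1 to 3, salvage neighbours that fell with GM-CSF from 1 to 3 (1 without a scaling factor) and between DON and no GM-CSF from 2 to 4, those that rose there from 0 to 2, and with DON over GM-CSF from 1 to 2 in each direction. Sialic acid genes that fell ranged from 1 to 2 in both comparisons with the GM-CSF group and from 1 to 3 between DON and no GM-CSF, and those that rose with DON over GM-CSF from 1 to 2. Lysosomal genes that rose between DON and no GM-CSF ranged from 0 to 3 (3 without a scaling factor, 1 without DON replicate 2). With the replicate block, 3238 genes rose and 3470 fell with GM-CSF, against 3393 and 3621; the calls on the 8 genes did not change with it. Deviations of same-numbered libraries from their group means were correlated over 8164 genes. The values were -0.05 for no GM-CSF and GM-CSF, -0.31 for no GM-CSF and DON, and 0.07 for GM-CSF and DON. Such correlations cannot tell whether libraries shared a culture or animal, which the labels do not say. With the block Gfpt1 (edgeR adjusted p = 0.0562), Npl (0.0538) and Renbp (0.0549) lost their calls in DON over GM-CSF. Total counts without a scaling factor moved the median of all genes by 0.12 with GM-CSF over none and raised the share of calls that were higher from 48.4% to 63.0%, and from 48.9% to 61.6% between DON and no GM-CSF; there Galk2 and Renbp changed sign with GM-CSF (3.93e-04 and 0.018). From FPKM, the log2 ratio of Ogt to Mgea5 differed by 2.79 between DON and GM-CSF and by 2.11 between DON and no GM-CSF; the length that FPKM divides by differed between the groups for Ogt. Other sign changes were of changes not called: Gpi1 between DON and no GM-CSF with FPKM (-0.00405 and -0.00403 with pseudocounts of 0.1 and 1), and with 1 library left out Gpi1 (-0.0304 to 0.0395) and Renbp (-0.00354 to 0.0931) between DON and no GM-CSF and Gfpt2 (-0.117 to 0.250) and Uap1l1 (-0.0184 to 0.152) between DON and GM-CSF. At this depth Gfpt2, with at most 18 counts a library, had an SE of 0.62 for its change with GM-CSF over none.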
